A study of Homo sapiens with 8 samples.

Results

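The genes described here are 8 components of the pericellular proteolysis machinery of the matrix: the matrix metalloproteinases MMP2 and MMP14, the tissue inhibitors of metalloproteinases TIMP1, TIMP2 and TIMP3, and the membrane-anchored proteases ADAM9, ADAM10 and ADAM17. They were taken by gene name from the authors' deposited table of translation efficiency, where each of the 8 has a single row among 12109 transcripts. The table compares human hepatic stellate cells, labelled as a cell line and cultured in medium with serum, that received a silencing RNA against LARP6 (genotype LARP6 kd, treatment dsiLARP6) with cells that received a control one (genotype WT, treatment dsi-control). There are 8 libraries in 4 groups of 2, namely RNA-seq of control cells, RNA-seq of knockdown cells, ribosome profiling of control cells and ribosome profiling of knockdown cells. Translation efficiency is the amount of ribosome footprints, the fragments that ribosomes protect from nuclease, relative to the RNA of the same transcript. No TGF-beta treatment is named in the labels of these libraries, and the labels do not say whether replicates were separate cultures, so the p-values may measure only technical spread. The comparison asks which messages change in translation efficiency when LARP6, an RNA-binding protein known for binding collagen messages, is depleted.

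Stellate cells are the source of scar matrix in the injured liver, and they also make the enzymes that cut it. MMP2 (gelatinase A) is secreted as an inactive proenzyme. It is activated at the cell surface by the membrane-type protease MMP14, with TIMP2 bound to MMP14 as the receptor for proMMP2, while more TIMP2 blocks MMP14. The ADAM proteases cut the ectodomains of membrane proteins from the cell surface: ADAM17 releases TNF and several ligands of the EGF receptor, ADAM10 cuts Notch receptors and cadherins, and ADAM9 sheds a range of surface proteins. TIMP3 is bound to the matrix and is an inhibitor of ADAM17, and TIMP1 is an inhibitor of many MMPs and of ADAM10.

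The sequence around the start codon is shown first because LARP6 is described as binding a stem-loop there in type I collagen messages. Each line runs 5′ to 3′ from 12 bases before the start codon to the 15th base counted from its A, read from GENCODE release 29 transcripts (GRCh38), with the start codon in capitals. COL1A1, a chain of type I collagen, is set beside the members other than ADAM9. The windows of ADAM9 and of COL1A2, the other chain, are not printed, and only their identities are given below.
COL1A1: tagggtctagacATGttcagctttgtg
MMP2: gggagcgctacgATGgaggcgctaatg
MMP14: tggtctcggaccATGtctcccgcccca
TIMP1: agagaacccaccATGgccccctttgag
TIMP2: ccccggcccgccATGggcgccgcggcc
TIMP3: gcagcagcggcaATGaccccttggctc
ADAM10: cggcagcggaagATGgtgttgctgaga
ADAM17: ggggccgggaacATGaggcagtctctc

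The windows of both type I collagen chains were alike, and those of the 8 genes shared fewer letters with them than the chains did with each other. Over the 24 positions outside the start codon, aligned on it without gaps, COL1A1 was identical to COL1A2 at 20 positions. The best identity to either chain was 5 positions for MMP2 and 7 for MMP14, which is at or below the median of 7 over 10103 other protein-coding transcripts of the table. It was 7 positions for TIMP2, ADAM9 and ADAM17, 6 for TIMP3 and 5 for ADAM10. TIMP1 stood above the median at 11 positions, a value reached by 3.41% of the other transcripts. This is identity of letters in a short window and says nothing about folding or binding. The base 3 before the start codon was a purine in 8 of the 8 members, against 85.5% of protein-coding transcripts, and the base after the start codon was G in 5 of the 8, against 53.8%.

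After knockdown, translation efficiency rose for both matrix metalloproteinases, MMP2 and MMP14, and no inhibitor or ADAM passed the test. By an adjusted p under 0.05 in the authors' deposited table, 2 of the 8 genes were called, both higher, where the background over all transcripts was 2.20% called in either direction, 1.07% higher and 1.12% lower. No member was called lower by the final p (1, ADAM10, by the first method alone). An unadjusted p under 0.05 was found for 3 of the 8, namely the 2 called genes and ADAM10. Such p-values were commoner than calls over all transcripts. A final p below 0.0385, that of ADAMTS4, was found for 1084 transcripts, and one below 0.0665, that of MBTPS1, for 1446. The median log2 change of the 8 genes in the authors' deposited table was 0.08, beside 0.02 over all transcripts, with 5 genes above 0 and 3 below. That the change is knockdown over control is inferred from the spread of the derived control values and not stated in the table, and every rise and fall given here rests on it. These genes were chosen with results of the table known, so the share called carries no test. Libraries have no values of their own in the table, which leaves every value without a replicate spread or standard error. No change of footprints alone or of RNA alone is given either. A rise or fall here is one of the ratio and is no measure of how much protein was made.

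**Figure D1:**
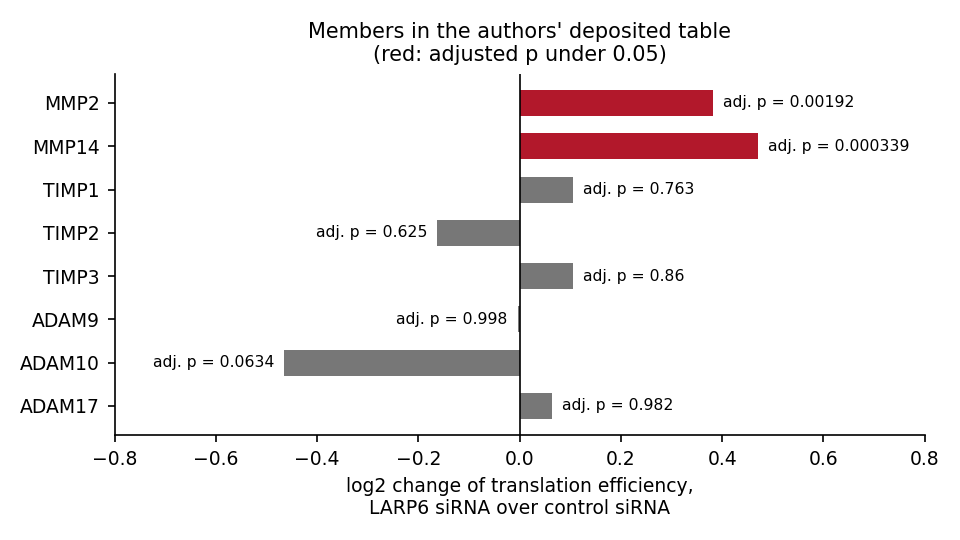
Log2 change of translation efficiency after LARP6 silencing (horizontal axis) for the 8 genes, as bars with the deposited adjusted p; red bars have an adjusted p under 0.05. MMP2 and MMP14 are the red bars, at 0.38 and 0.47, and ADAM10 is the longest bar to the left, at −0.46, with an adjusted p of 0.0634.

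MMP14, the membrane-type protease that cuts fibrillar collagen and activates proMMP2 (ENST00000311852, chromosome 14, 22836557 to 22847761, plus strand, 10 exons), had the largest rise of the 8. Its log2 efficiency in the authors' deposited table was 0.44 in knockdown cells, and the control value derived from it was −0.03. The control value lay close to the middle of all transcripts, at the 48.6th percentile, and the knockdown value at the 66.0th. The authors' deposited table gives a log2 change of 0.47 for MMP14, or 1.39-fold, with an adjusted p of 0.00034. The first of the authors' 2 methods gave p = 2.8e-06 and the second p = 2.1e-06 in the authors' deposited table, and 100 transcripts had a smaller final p than MMP14.

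MMP2, the secreted gelatinase that is activated by MMP14 (ENST00000219070, chromosome 16, 55478971 to 55506691, plus strand, 13 exons), moved the same way. Its log2 efficiency was 0.56 in knockdown cells in the authors' deposited table and its derived control value was 0.18. This took MMP2 from the 56.7th to the 70.4th percentile of all transcripts. The log2 change in the authors' deposited table was 0.38 for MMP2, or 1.30-fold, with an adjusted p of 0.0019. Both rises were modest in size: 35.9% of all transcripts had a larger absolute log2 change than MMP14 and 44.2% a larger one than MMP2, and neither gene reached 0.5 on the log2 scale of the authors' deposited table. The MMP2 exons share 174 bases with AC007336.3 on the same strand, and the sources used here do not say how reads in shared bases were assigned.

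None of the 3 inhibitors was called in the authors' deposited table by the final adjusted p, by either method alone, or at an unadjusted p under 0.05. As 2.20% of all transcripts were called, 0 calls among 3 genes are near the background share. TIMP1 (ENST00000218388, chromosome X, 47582313 to 47586789, plus strand, 6 exons) had a log2 change of 0.11 with an adjusted p of 0.76 per the authors' deposited table. TIMP3 (ENST00000266085, chromosome 22, 32801701 to 32863043, plus strand, 5 exons) also had a log2 change of 0.11 and, per the authors' deposited table, an adjusted p of 0.86. TIMP2 (ENST00000262768, chromosome 17, 78852977 to 78925387, minus strand, 5 exons) lay on the other side of 0, at a log2 change of −0.16 with an unadjusted p of 0.088 and an adjusted p of 0.62 per the authors' deposited table. TIMP1 and TIMP3 lie inside the synapsin genes SYN1 and SYN3 on the opposite strand and share 0 exonic bases with them. TIMP2 shares 198 exonic bases with CEP295NL on its own strand and 367 with the antisense gene AC022966.1.

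TIMP1 stood far above the other inhibitors in level. TIMP1 had a log2 efficiency of 2.76 in knockdown cells in the authors' deposited table, at the 98.0th percentile of all transcripts, and a derived control value of 2.66, at the 97.9th. TIMP3 stood at 0.52 in knockdown cells in the authors' deposited table and at a derived 0.42 in control cells. TIMP2 stood at −0.17 in knockdown cells in the authors' deposited table and at a derived −0.01 in control cells, near the median transcript. In knockdown cells, then, footprints per RNA of TIMP1 were 4.72 times those of TIMP3 and 7.65 times those of TIMP2, on the scale of the authors' deposited table. These are levels with no error, and a ratio of footprints to RNA over the same transcript depends on which stretch was counted for each, on which the sources used here are silent.

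**Figure D2:**
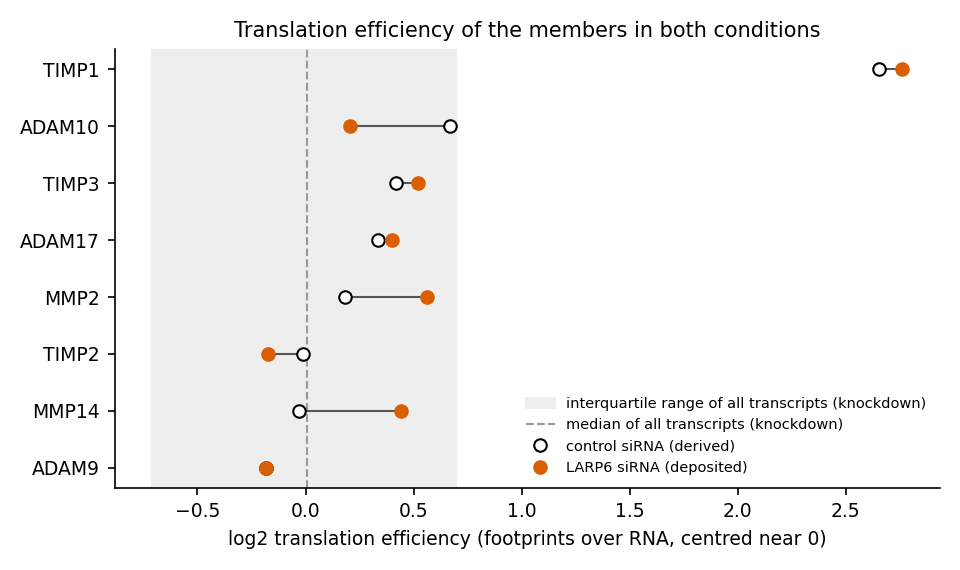
Log2 translation efficiency (horizontal axis, centred near 0) of the 8 genes, ordered by their control value; open circles are control cells (derived), filled circles LARP6 knockdown cells (deposited), the grey band the interquartile range of all transcripts in knockdown cells and the dashed line their median. TIMP1 stands apart to the right at 2.66 and 2.76, and the other 7 genes lie inside the band in both conditions, with the knockdown value of MMP2 and MMP14 to the right of the control value and that of ADAM10 to the left.

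ADAM10 had the lowest log2 change of the 3 ADAMs and of the 8 genes. ADAM10, the sheddase of Notch receptors and cadherins (ENST00000260408, chromosome 15, 58588807 to 58749978, minus strand, 16 exons), had, per the authors' deposited table, a log2 change of −0.46 with an unadjusted p of 0.0016 and an adjusted p of 0.0634, which misses the threshold. The change of ADAM10 was of like size to that of MMP14 and opposite in sign, with a final p that 295 transcripts undercut in the authors' deposited table. The first method alone put ADAM10 past the threshold, with an adjusted p of 0.0333, and the second did not (adjusted p = 0.053); both were adjusted here over all transcripts from the p-values of the authors' deposited table. Its log2 efficiency was 0.21 in knockdown cells in the authors' deposited table, at the 57.5th percentile, against a derived 0.67 in control cells, at the 74.5th. ADAM10 shares 136 exonic bases with the antisense gene AC018904.1.

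The other sheddases were near 0. ADAM17, the TNF-converting enzyme (ENST00000310823, chromosome 2, 9488486 to 9555830, minus strand, 19 exons), had a log2 change of 0.06 with an adjusted p of 0.98 per the authors' deposited table. Its log2 efficiency was 0.40 in knockdown cells in the authors' deposited table and a derived 0.33 in control cells. ADAM17 shares 1323 exonic bases with IAH1 on the opposite strand, whose log2 change in the authors' deposited table was 0.11 (adjusted p = 0.98). ADAM9 (ENST00000487273, chromosome 8, 38996986 to 39105001, plus strand, 22 exons) had a log2 change of −0.003 with an adjusted p of 0.998 per the authors' deposited table. Its log2 efficiency was −0.18 in both conditions, at the 42.6th percentile in the knockdown column of the authors' deposited table.

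**Figure D3:**
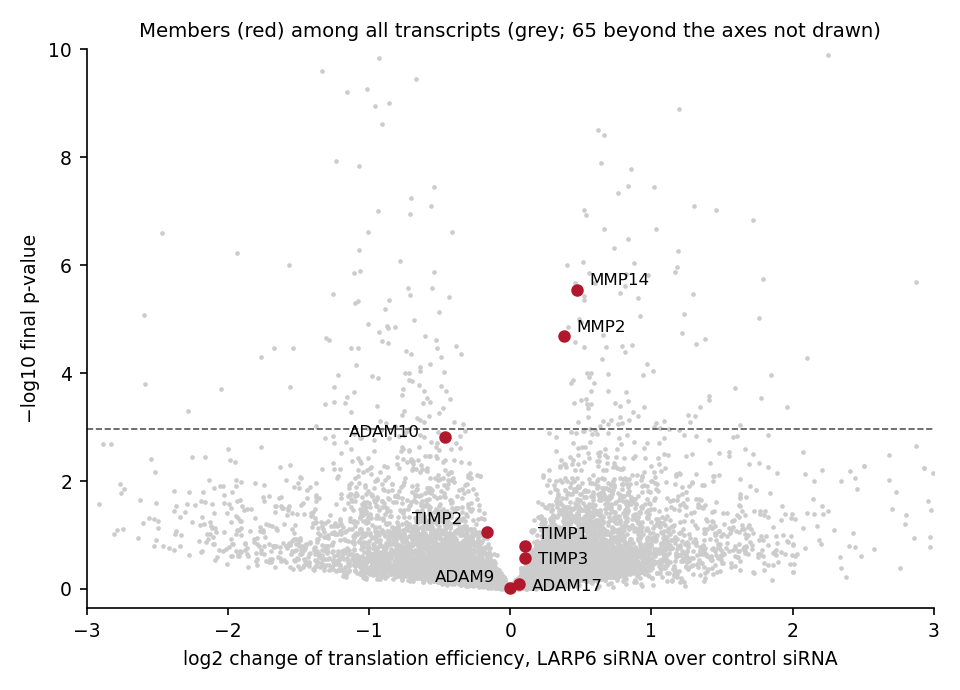
Log2 change of translation efficiency (horizontal axis) against −log10 of the final p-value (vertical axis) for all transcripts (grey) and the 8 genes (red); the dashed line is the largest p that was called. MMP14 and MMP2 lie above the line on the right, ADAM10 lies just below it on the left, and the other 5 genes lie near the bottom centre.

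Changes of like size had different p-values. The log2 changes of ADAM10 and MMP14, of like size in the authors' deposited table, had final p-values of 0.0016 and 2.8e-06. The proprotein convertase MBTPS1, also at −0.46 in the authors' deposited table, had a final p of 0.0665. An adjusted p that misses the threshold does not show that TIMP1, TIMP2, TIMP3, ADAM9, ADAM10 or ADAM17 kept their efficiency.

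The efficiencies of enzymes and inhibitors among these genes can be set side by side. A pairing here, such as MMP14 with TIMP1, does not mean that the inhibitor acts on the enzyme. The derived control efficiencies of MMP14 and TIMP2 differed by −0.02 on the log2 scale, and their knockdown efficiencies in the authors' deposited table by 0.61. For MMP2 over TIMP2 the same gap was 0.19 in control cells and 0.74 in knockdown cells of the authors' deposited table. Both enzymes stayed far below TIMP1. The gap of MMP2 over TIMP1 was −2.47 in control cells and −2.20 in knockdown cells, and that of MMP14 over TIMP1 −2.69 and −2.32. For ADAM17 over its inhibitor TIMP3 the gap was −0.08 in control cells and −0.12 in knockdown cells of the authors' deposited table. For TIMP3 over ADAM10 it was −0.25 in control cells and 0.32 in knockdown cells. These are gaps in footprints per RNA. RNA levels are not given, so the gaps are no ratio of enzyme to inhibitor made. The differences between genes in their response were not tested, since the table holds no value per library.

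The 8 messages differ in the length and base content of their parts. The 3 TIMPs have short coding sequences, of 624 bases for TIMP1, 663 for TIMP2 and 636 for TIMP3, against a median of 1398 over 10394 protein-coding transcripts. Their ends differ: the 3′ UTR has 98 bases in TIMP1, at percentile 4.82, but 2690 in TIMP2 and 3666 in TIMP3. The 5′ UTR is 81.6% G and C in TIMP2 and 77.7% in TIMP3, against 62.9% in TIMP1 and a median of 67.6%. The coding sequence makes up 70.0% of the TIMP1 transcript, 18.2% of TIMP2 and 13.8% of TIMP3. Of the 3 inhibitors, TIMP1 had both the highest efficiency and the shortest untranslated ends. TIMP1 also had the most upstream ATG triplets of the 3, with 3 against 0 in TIMP2 and 0 in TIMP3. Across all transcripts, the number of upstream ATG triplets had a Spearman correlation of −0.14 with the knockdown log2 efficiency. Whether any of these features bears on the level of TIMP1 was not tested.

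The 2 called genes, MMP2 and MMP14, have 5′ UTRs of 509 and 261 bases, at the 90.6th and 65.6th percentiles, with 1 and 0 upstream ATG triplets. ADAM10 has the longest message of the 8, with 11431 bases, of which 8740 are 3′ UTR (98.6th percentile), and 2 upstream ATG triplets. The ADAM coding sequences are poor in G and C, at 41.6% in ADAM10, 44.5% in ADAM9 and 44.6% in ADAM17, while those of the MMPs and TIMPs range from 57.0% in MMP2 to 59.3% in TIMP2. Across 10394 transcripts of the table, coding length had a Spearman correlation of −0.40 with the knockdown log2 efficiency and −0.02 with the log2 change. The G and C content of the coding sequence had one of −0.06 with efficiency and 0.08 with the log2 change. For 3′ UTR length the correlations were −0.23 with efficiency and −0.04 with the log2 change, and for 5′ UTR length −0.15 and −0.02. For the G and C content of the 5′ UTR, over 10231 transcripts, they were −0.04 and 0.12. These correlations run over transcripts that share the same libraries and are a description. The part of message build in the values of the 8 genes was not tested.

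**Figure D4:**
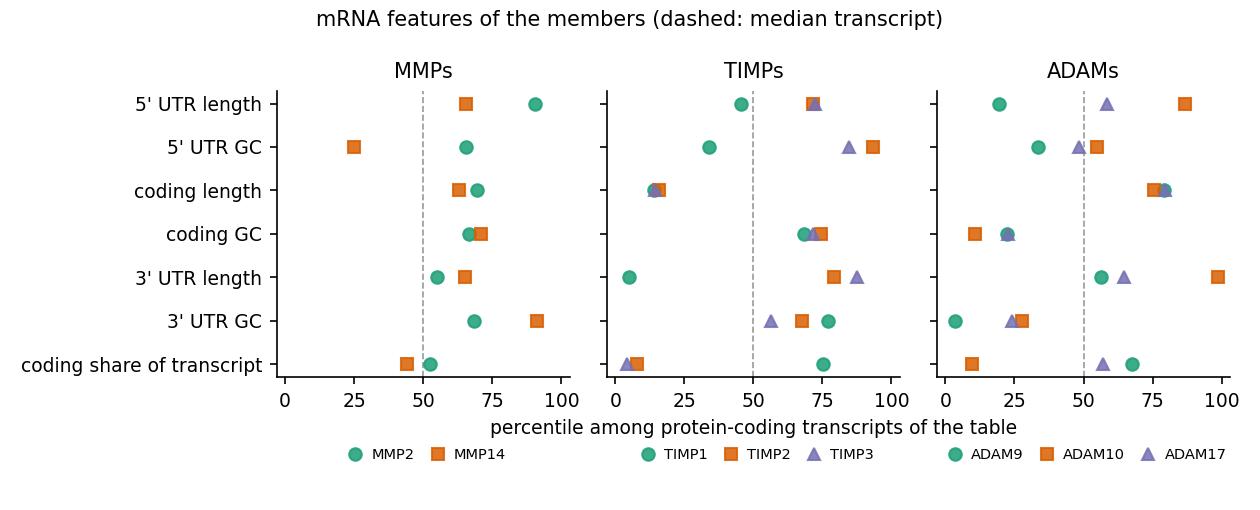
Percentile of each gene (horizontal axis) among protein-coding transcripts of the table for 7 mRNA features, in panels for MMPs, TIMPs and ADAMs; the dashed line is the median transcript. The TIMPs sit together at short coding length and apart in 3′ UTR length, and the ADAMs sit together at long coding length and low coding GC content.

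The wider metalloproteinase network held 4 calls. Of 143 other genes in 9 lists of relatives, regulators, partners and substrates, 82 were measured, of which the authors' deposited table called 1 higher and 3 lower (4.88%, where the background over all transcripts was 2.20%). Their median log2 change was −0.02 in the authors' deposited table, with 39 above 0, 42 below and 1, TIMP4, listed at 0. Proteases and inhibitors of other kinds supplied a pair of these calls. TFPI2, a secreted Kunitz-type inhibitor of plasmin and other proteases, fell by 0.34 as a log2 change (adjusted p = 0.042) per the authors' deposited table, as the only one of 5 measured other inhibitors to be called. PAPPA, the metalloproteinase that frees insulin-like growth factor by cutting its binding proteins, fell by 0.72 (adjusted p = 0.009) per the authors' deposited table, 1 of 5 measured astacins, pappalysins and procollagen proteinase enhancers. Within the same list, BMP1, the procollagen C-proteinase, had a log2 change of −0.36 with an adjusted p of 0.27 per the authors' deposited table. An unadjusted final p under 0.05 was found for 3 of the 5 genes of this list, all with a log2 change below 0. At least 1084 of the 12109 transcripts had such a p, and the excess of this list was not tested.

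Among 20 measured proteins that ADAMs or MMP14 shed from the surface, the authors' deposited table called 1 higher and 1 lower (10.0%, against the background of 2.20%). An unadjusted p under 0.05 was reached by 6 of the 20, and the first method alone called 4 and the second 2. The background of 2.20% does not apply to these counts. Over all transcripts, the first method alone called 457 and the second 342, beside 266 by the final adjusted p. At least 1084 transcripts had an unadjusted final p under 0.05. The excess of the list over these wider backgrounds was not tested. HBEGF, an EGF receptor ligand released by ADAM17, rose by 1.96 on the log2 scale, or 3.89-fold, with an adjusted p of 0.0227 per the authors' deposited table. JAG1, a Notch ligand that is itself shed, was 2.47-fold lower with an adjusted p of 0.002 per the authors' deposited table. The median of this list was −0.002 in the authors' deposited table, with 10 genes above 0 and 10 below. Under the stricter Benjamini-Yekutieli adjustment 1 of the 4 calls in the network, JAG1, was kept.

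Relatives of the 8 genes were not called. The background over all transcripts was 2.20% called, so 0 calls in lists this short are near that share and are no result about these genes. Of 8 other measured MMPs, 0 passed in the authors' deposited table and 0 passed by either method alone. None had an unadjusted final p under 0.05. The interstitial collagenase MMP1 had a log2 change of 0.35 (final p = 0.075) and MMP19 of 0.67 (final p = 0.087) in the authors' deposited table. The second method alone gave MMP1 an unadjusted p of 0.014. Of 6 other measured ADAMs 0 passed in the authors' deposited table and by either method alone, and 1 had an unadjusted p under 0.05, ADAM19, at a log2 change of 0.82 (adjusted p = 0.36). ADAM23 was at 1.13 (adjusted p = 0.76) per the authors' deposited table. The 14 measured ADAMTS proteases and ADAMTS-like proteins likewise gave 0 calls, also by either method alone, with 1 at an unadjusted p under 0.05, the aggrecanase ADAMTS4, at a log2 change of 1.28 (adjusted p = 0.43) per the authors' deposited table. ADAMTSL5 was at 1.26 (adjusted p = 0.78) per the authors' deposited table. The other measured inhibitor with the next smallest p was RECK, a membrane-anchored inhibitor of MMPs, at −0.23 (adjusted p = 0.80) per the authors' deposited table.

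Regulators and partners of the 8 proteases and inhibitors were also not called. With 2.20% of all transcripts called, 0 calls are again near the background share and are no result about these lists. Of 7 measured iRhoms, FRMD8 and tetraspanins that carry ADAM17 or ADAM10 to the surface, 0 passed in the authors' deposited table or by either method alone and 0 had an unadjusted p under 0.05; the tetraspanins TSPAN14 and TSPAN5 were at log2 changes of 0.84 and 0.30. Some proprotein convertases, FURIN among them, remove the prodomains of MMP14 and the ADAMs. Of 5 measured proprotein convertases, 0 passed in the authors' deposited table and 1 had an unadjusted p under 0.05. That one was FURIN, at a log2 change of 0.69 (adjusted p = 0.14) per the authors' deposited table, which the first method alone called. Among 12 measured surface partners and endocytic receptors 0 passed in the authors' deposited table, 1 passed by either method alone, and 2 had an unadjusted p under 0.05. These were the heparan sulphate proteoglycan SDC4, at −0.51 (adjusted p = 0.055), and LRP1, the endocytic receptor that clears MMP and TIMP complexes, at −0.35 (adjusted p = 0.14), per the authors' deposited table.

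**Figure D5:**
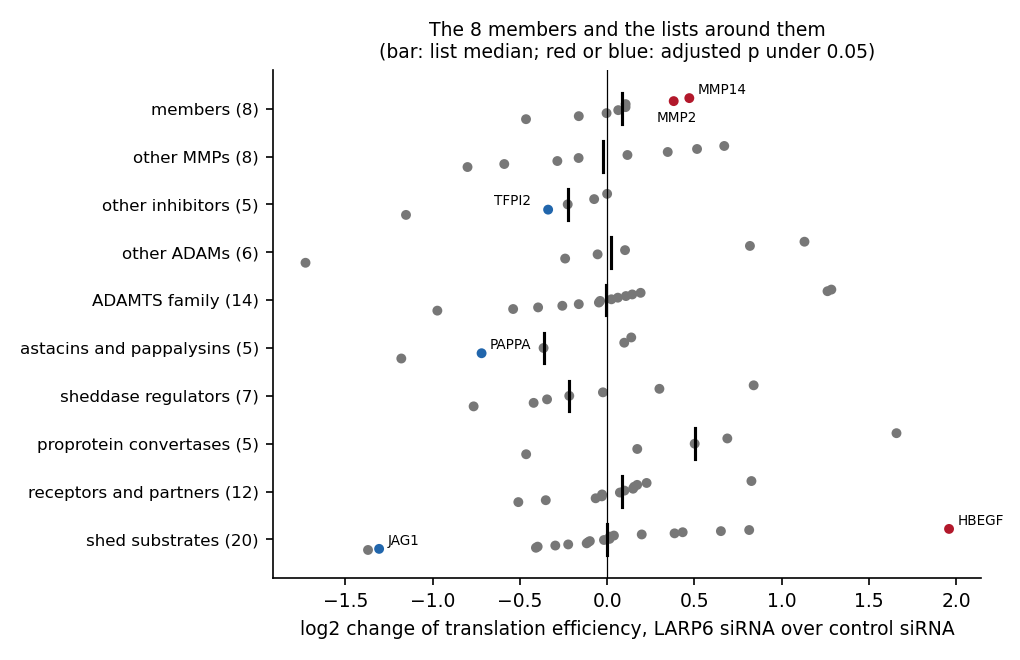
Log2 change of translation efficiency (horizontal axis) of each measured gene in the 8 members and in 9 lists around them, with the number measured in brackets; black bars are list medians, and red (higher) or blue (lower) points have an adjusted p under 0.05. The called points are MMP2, MMP14 and HBEGF on the right and TFPI2, PAPPA and JAG1 on the left.

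For the series as a whole, 266 of the 12109 transcripts were called in the authors' deposited table, and efficiencies are centred on the typical transcript, so a shift common to every message is invisible. LARP6 itself had a log2 change of 0.07 (adjusted p = 0.98) per the authors' deposited table, and since this is footprints over RNA it is no check of the knockdown. Of 15 markers of stellate cells 12 had a row, COL1A1, PDGFRB and ACTA2 among them, and DES, LRAT and RGS5 had none. The markers were used only to see which had a row. Of the 12, the authors' deposited table called 1 higher and 7 lower in translation efficiency (66.7%, where the background over all transcripts was 2.20%). Their median was −0.49 on the log2 scale. Of markers of other liver cells, 2 of 10 for hepatocytes, 2 of 8 for endothelial cells, 2 of 9 for leukocytes and Kupffer cells and 3 of 5 for biliary cells had a row. Having a row shows only that a transcript was measured, so these counts do not establish the cell type.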

How the data were processed

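Trizol was used to extract RNA, and ribosome profiling used cycloheximide, RNase I digestion of lysates and pelleting of ribosomes, per the labels' protocols. Named in the submitters' processing notes are Bowtie, cutadapt, GRCh38 and hg38; the sources used here are silent on versions, RNA selection, the counted region and the comparison program. Per the file headers, the authors deposited the log2 efficiency of the knockdown, its log2 change by each of 2 methods, a final log2 change, and the matching p-values with an adjusted one. The deposited final p-value was whichever method's p-value was larger, in 12109 of 12109 rows, and the deposited adjusted p-value differed from Benjamini-Hochberg adjustment by at most 6.3e-15. The table holds no count or depth, so none is given.

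To derive control efficiencies, the log2 change of the second method was subtracted from the deposited log2 efficiency. The table does not state the direction of the change. Read as knockdown over control, as here, this gave an SD of 1.27 over transcripts, beside 1.29 in the knockdown; the opposite reading gave 1.61. Percentiles are the percent of transcripts with a lower value. A gene was called at an adjusted p under 0.05. Rows were matched to GENCODE release 29 (GRCh38) by the last digits of the transcript identifier (11581 of 12109). The symbol was the same in 10657 of these, the 8 members among them. Matched rows with another symbol were kept in the background of message features and start windows. Scripts used Python 3.11.15, pandas 2.3.3, numpy 2.4.6 and matplotlib 3.10.9; the adjustment was tested on simulated data. The members and lists were chosen with earlier results of these data known. Named genes were the members, LARP6, and in each list every called gene and the genes with the 2 smallest p-values; IAH1 and the stellate cell markers named were added for overlap and for the cell check. Alternatives were each method alone, other thresholds, a fold minimum, Benjamini-Yekutieli adjustment and protein-coding transcripts only, and, chosen after seeing the data, rows with a gene name only. Some items are not reported here.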

Additional observations from a re-analysis of the deposited data

How the results depend on the processing

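No paired analysis was possible because libraries have no values of their own in the table, and the planned replicate block, leave-one-out and count models were therefore not run. A minimum log2 change of 0.5 in size left 0 of the 2 called members; the other 7 settings kept MMP2 and MMP14 called, and the method 1 setting and the adjusted p under 0.1 each added ADAM10. The final p is the larger of the 2 methods' p-values. Method 1 alone, method 2 alone and the threshold of 0.1 could therefore not drop a call, and a call kept there is no check. The 266 calls over all transcripts became 457 by method 1 alone and 161 with Benjamini-Yekutieli adjustment. The 4 calls in the network lists became 8 by method 1 alone, 2 at an adjusted p under 0.01 and 1 with Benjamini-Yekutieli adjustment, where the adjusted p was 0.0901 for PAPPA, 0.226 for HBEGF and 0.417 for TFPI2. Over 12 genes (the members and the called network genes) and 8 settings, 86 of 96 values stayed on their side of the threshold, 8 lost a call, 2 gained one and none changed sign. Much of this was fixed in advance. Only method 1 and method 2 alone used a log2 change other than the final one, so elsewhere no sign could change. The threshold of 0.01, the fold minimum and the Benjamini-Yekutieli adjustment could not add a call. The members' median stayed between 0.080 and 0.085, and only method 1 and method 2 alone could have moved it. Depth is unknown, and what it hides cannot be said.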
